A study of Mus musculus with 2 samples.

Results

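The wide DNase I hotspots of newborn mouse midbrain were 2705 autosomal regions, chosen by their width alone. A hotspot is a stretch in which the authors' caller found cutting by the nuclease DNase I above its surroundings, and a member is any hotspot of at least 1500 bp in either library, merged over both libraries where the intervals shared at least 1 bp. Members covered 5.28 Mb. Merging all autosomal hotspots of both libraries, whatever their width, gave 228574 regions, a separate merge of which the members are not a subset. The tissue was midbrain of B6NCrl mice at 0 days of age, with both sexes pooled, and the labels give 1 group with 2 biological replicates, each with its own library. Both biosamples trace to 1 pooled donor entry, so the spread between the libraries may be technical. No treatment, allele or second tissue enters the comparison, and all values are descriptions without a test.

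DNase I cuts DNA where nucleosomes are missing or displaced, mostly where transcription factors and the transcription machinery sit. Active promoters in CpG islands, clusters of enhancers and the genes that fix a cell's identity are known for long open stretches, in which several separate sites stand side by side. In the developing midbrain, some LIM and TALE homeodomain factors are among the genes that set regional identity.

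Replicate 1 was the longer list, with 201710 autosomal hotspots against 108525 in replicate 2, and no read totals were used, so depth is unknown. As a check of the tissue, hotspots of both libraries within 500 bp of a transcription start site (TSS) were counted by gene list. They stood at 17 of 17 autosomal pan-neuronal genes, against 13200 of all 20807 coding genes, 1 of 14 liver genes and 1 of 14 microglial genes. Lists not particular to neurons were also reached, with 16 of 16 housekeeping, 10 of 12 astrocyte and 8 of 13 oligodendrocyte genes. The counts were 9 of 18 midbrain and isthmus patterning genes, 9 of 18 dopaminergic genes, 6 of 17 forebrain patterning genes and 4 of 39 Hox genes. Each of these is a lower share than that of all coding genes. The midbrain GABAergic list, at 13 of 16 genes, and the midbrain glutamatergic list, at 12 of 14, had higher shares. No hotspot stood at a TSS of the dopaminergic markers Th, Foxa1, Foxa2 or Lmx1b in either library.

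To show what the widest regions are made of, the strongest 150 bp peak of each is printed, taken from the library in which the region was widest and read from the plus strand of the RefSeq copy of GRCm38.p6, the mm10 assembly. Capitals mark matches, on either strand, to any of 14 consensus motifs. Of these, 12 are spelled out further on, and the NFI and RFX motifs are given by name. A sequence without capitals held none of them. Lhx9 encodes a LIM homeodomain factor, Mex3b an RNA-binding protein, Meis2 a TALE homeodomain factor and Marcks an actin-binding substrate of protein kinase C. The Mir9-3hg peak stands in the host gene of a miR-9 precursor, with Polg as the nearest coding TSS, and the region upstream of C130071C03Rik, the host gene of another, has Mef2c as its nearest coding TSS. Otx2, a head and midbrain homeodomain factor, and Irf2bp2, a corepressor, name the next widest regions away from any TSS. The peaks stand at chr1:138842416-138842565 (Lhx9), chr7:82867076-82867225 (Mex3b), chr2:116071596-116071745 (Meis2), chr7:79506336-79506485 (Mir9-3hg), chr13:83715096-83715245 (upstream of C130071C03Rik), chr10:37138896-37139045 (Marcks), chr14:48656116-48656265 (Otx2) and chr8:126666456-126666605 (Irf2bp2).
Lhx9: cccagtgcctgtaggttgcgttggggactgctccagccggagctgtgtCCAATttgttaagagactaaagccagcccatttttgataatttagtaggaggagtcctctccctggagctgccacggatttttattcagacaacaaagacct
Mex3b: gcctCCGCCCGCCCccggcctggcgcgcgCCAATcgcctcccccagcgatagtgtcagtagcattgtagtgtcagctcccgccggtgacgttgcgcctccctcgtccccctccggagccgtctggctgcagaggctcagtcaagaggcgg
Meis2: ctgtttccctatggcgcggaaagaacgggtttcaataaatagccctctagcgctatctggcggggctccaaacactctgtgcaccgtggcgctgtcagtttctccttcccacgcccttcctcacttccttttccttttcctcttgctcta
Mir9-3hg: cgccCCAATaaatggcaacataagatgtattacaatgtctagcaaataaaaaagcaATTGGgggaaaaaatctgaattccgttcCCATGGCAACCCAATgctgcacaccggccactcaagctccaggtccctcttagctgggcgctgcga
C130071C03Rik upstream: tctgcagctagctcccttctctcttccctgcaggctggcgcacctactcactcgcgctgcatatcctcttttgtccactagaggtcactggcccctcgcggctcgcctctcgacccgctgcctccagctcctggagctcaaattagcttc
Marcks: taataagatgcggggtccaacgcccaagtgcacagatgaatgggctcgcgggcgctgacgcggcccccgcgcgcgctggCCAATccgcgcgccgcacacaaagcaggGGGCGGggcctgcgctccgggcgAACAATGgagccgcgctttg
Otx2: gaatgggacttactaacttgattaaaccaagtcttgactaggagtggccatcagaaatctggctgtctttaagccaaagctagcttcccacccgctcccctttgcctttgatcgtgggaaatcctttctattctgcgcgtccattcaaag
Irf2bp2: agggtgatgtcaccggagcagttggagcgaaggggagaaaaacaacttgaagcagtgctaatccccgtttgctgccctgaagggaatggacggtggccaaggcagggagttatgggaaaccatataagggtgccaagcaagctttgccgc

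The Mex3b and Marcks peaks, at promoters, held 2 and 1 GC boxes and had GC contents of 70.7% and 70.0%. The Mir9-3hg peak held 3 CCAAT boxes and 1 RFX match, which stands directly before the last of them, the Lhx9 peak 1, and 4 of the 8 peaks held no match at all. The authors' signal at these peaks was 35 for Lhx9, 51 for Meis2, 30 for Mir9-3hg, 55 upstream of C130071C03Rik and 18 for Otx2 in replicate 2, and 141 for Mex3b, 137 for Marcks and 137 for Irf2bp2 in replicate 1. The signal was not scaled between libraries, so these values rank peaks only within a library. A peak of the other library overlapped 7 of the 8; the exception was Otx2.

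In replicate 1, 2479 of 201710 hotspots, 1.23%, reached the width limit, and in replicate 2, 709 of 108525, 0.653%, did so. All hotspots had a median width of 241 bp in replicate 1 and 201 bp in replicate 2. The wide ones had medians of 1804 bp (quartiles 1623 and 2083, maximum 6453) and 1717 bp (1584 and 1967, maximum 7742). At 3000 bp or more there were 73 in replicate 1 and 22 in replicate 2. Wide hotspots held 7.44% of the base pairs in hotspots of replicate 1 and 4.28% of those of replicate 2.

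The limit cuts through a smooth tail. In replicate 1, 311 hotspots fell less than 50 bp short of 1500 bp and 268 exceeded it by less than 50 bp or matched it, and in replicate 2 these counts were 132 and 123. The narrowest members were at Lrrn1, which encodes a neuronal transmembrane protein (1500 bp, replicate 1), and Klhdc9 (1502 bp, replicate 2). The hotspots just outside, both 1 bp short of the limit, were nearest to Ercc6l2 in replicate 1 and at the TSS of Puf60, a splicing factor gene, in replicate 2.

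Of the 2705 regions, 478 were wide in both libraries, 1998 in replicate 1 only and 229 in replicate 2 only. Of the regions wide in replicate 2, 67.6% were also wide in replicate 1, and of those wide in replicate 1, 19.3% were also wide in replicate 2. Few regions that were narrow in the other library lacked a hotspot there. A hotspot of each library reached 2682 regions, 99.2% (95% Wilson interval 98.7 to 99.4, which covers counting error only), against 33.5% of all replicate 1 hotspots and 72.2% of all replicate 2 hotspots that touched one of the other library. A touch of 1 bp is more likely for a wide interval, so this contrast follows in part from the rule. By base pairs, the other library covered 73.9% of wide and 37.2% of all hotspots in replicate 1, and 83.2% of wide and 77.6% of all in replicate 2. Where only replicate 1 was wide, replicate 2 hotspots covered a median of 73.4% of the region, with a median of 910 bp for the widest of them. Where only replicate 2 was wide, replicate 1 covered a median of 74.3%, and its widest hotspot had a median of 985 bp.

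Among the 478 regions wide in both, 343 were wider in replicate 1 and 135 in replicate 2, and the widths had a Spearman correlation of 0.389 over these regions. Over the 2682 regions with a hotspot of each library it was -0.042. Both values depend on the choice by width. The same libraries supplied every point, so no test is attached. Marcks had the greatest smaller width, with 5277 bp in replicate 1 and 4841 bp in replicate 2. Next came Ppp2r3d, a regulatory subunit of protein phosphatase 2A (3732 and 3840 bp), Mnt, an antagonist of Myc (3464 and 3319 bp), and Celsr3, a cadherin of axon guidance (3870 and 3085 bp). The other regions in the top 10 were at Crlf2, Zbtb14, Gsk3b, Ncam1, Tmem178b and Jkamp, with smaller widths of 2654 to 3048 bp, and each of the 10 held a coding TSS.

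**Figure D1:**
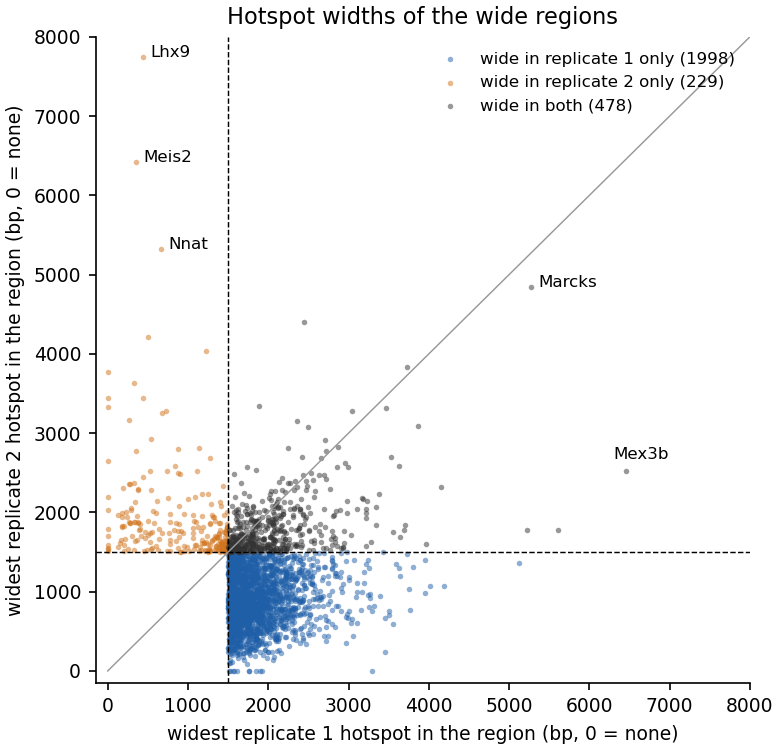
Each point is 1 of the 2705 regions; the axes give the widest hotspot of replicate 1 and of replicate 2 in it, in bp, with 0 where there was none. The dashed lines mark 1500 bp and the grey line equal widths; Lhx9, Meis2 and Nnat lie far to the replicate 2 side, Mex3b to the replicate 1 side and Marcks near the line.

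The 10 widest regions were led by Lhx9 at chr1:138839311-138847052, 7742 bp in replicate 2. In replicate 1 the same stretch held 7 separate hotspots, the widest of 441 bp, which covered 23.7% of it. It lies in the Lhx9 gene and holds a TSS of it, with 17 peaks in replicate 2 and 8 in replicate 1. Mex3b at chr7:82864268-82870720 was a single replicate 1 hotspot of 6453 bp, and replicate 2 covered 95.3% of it in 8 pieces, the widest of 2518 bp, with 13 peaks in each library. The Meis2 region at chr2:116068099-116074516, 2260 bp from a coding TSS, was 6418 bp wide in replicate 2 with 12 peaks, while 4 replicate 1 hotspots with 4 peaks covered 11.6% of it. Thus 2 of the 3 widest regions were wide in the shorter list and narrow in the longer one.

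The largest runs of wide regions, counted as regions less than 50 kb from the next, took in the host genes of the brain microRNA precursors Mir9-2 and Mir9-3. Around the Mir9-3hg gene, 8 regions stood within 83.0 kb, not all of them in that gene, with Polg and Rhcg as the nearest coding genes. The widest was at chr7:79505829-79512204 (6376 bp, with hotspots up to 2439 bp in replicate 1 and 4405 bp in replicate 2). It held 14 peaks in replicate 1 and 12 in replicate 2. Its neighbour at chr7:79504235-79505815 contains the Mir9-3 gene itself and was 1581 bp wide in replicate 1, against 277 bp in replicate 2. Around C130071C03Rik, 7 regions stood within 28.5 kb and 5 of them were wide in both libraries. The widest, at chr13:83714935-83720594, measured 5660 bp with hotspots of up to 2357 and 3157 bp, and the one over Mir9-2 at chr13:83736752-83741240 had hotspots of up to 4149 and 2326 bp. The nearest coding TSS was 62047 bp from the widest region of this run and 39467 bp from the widest region in Mir9-3hg.

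The remaining regions in the top 10 were at promoters or gene starts. Pcdh7, a protocadherin of neuronal adhesion, measured 5608 bp in replicate 1 and 1781 bp in replicate 2. Myc, the proto-oncogene factor, measured 5220 and 1776 bp, and Brd2, a reader of acetylated histones, 5120 and 1358 bp. Nnat, an imprinted proteolipid gene that lies inside Blcap, was the reverse, with 665 bp in replicate 1 and 5323 bp in replicate 2. Each library thus held a single wide interval where the other had several pieces, in both directions.

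**Figure D2:**
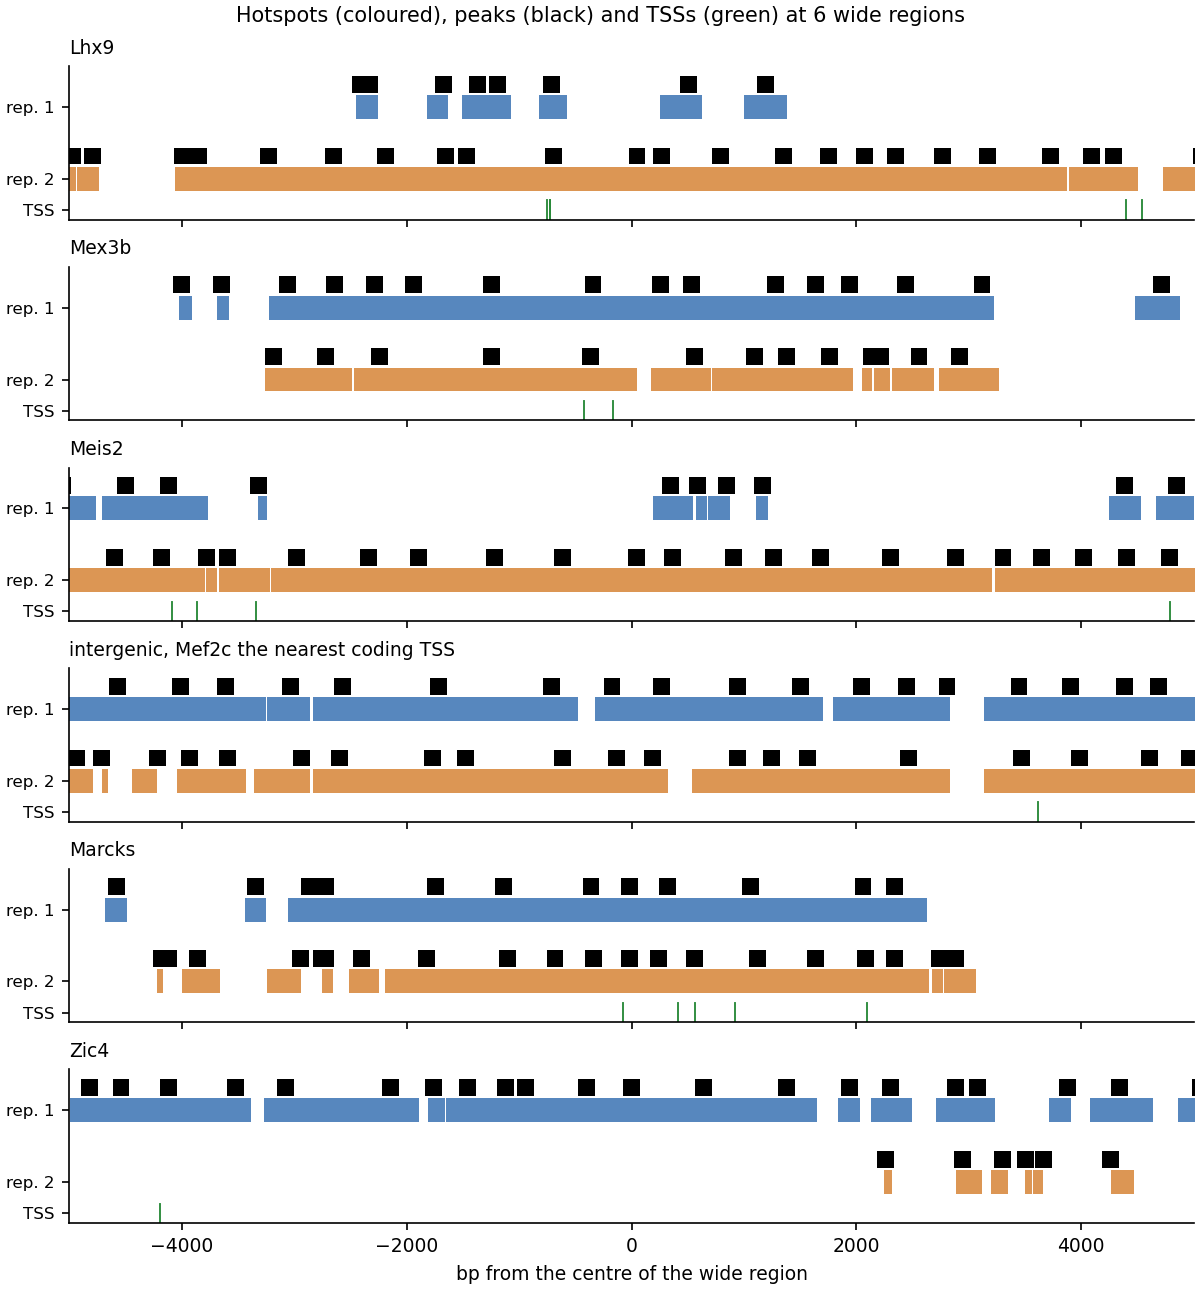
Hotspots of replicate 1 (blue) and replicate 2 (orange), 150 bp peaks (black) and annotated TSSs (green) about the centre of 6 regions, in bp. Lhx9 and Meis2 are continuous in replicate 2 and broken in replicate 1, Mex3b the reverse, the region upstream of C130071C03Rik and Marcks are wide in both, and the Zic4 region has no replicate 2 hotspot at its centre.

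In 23 regions the other library had no hotspot at all, and these are listed after their values were seen. Replicate 2 had none in 11, of which the widest was near Zic4, a zinc finger factor of dorsal neural tissue and cerebellum (chr9:91353504-91356798, 3295 bp in replicate 1 with 7 peaks and a top signal of 122). The others were a second region near Zic4 (1607 bp) and regions at or nearest to Trhde, Lrrtm3, Ugt1a1, where there were a pair, Tox3, Adra1b, Tusc1, Fto and Adamts20, of 1513 to 1925 bp. Replicate 1 had none in 12. The widest lay near Otx2 (chr14:48653563-48657333, 3771 bp in replicate 2 with 8 peaks, 4599 bp from the TSS). The next had no coding gene within 10 kb, with the nearest coding TSS, that of Tmco5, at 59361 bp (3438 bp wide) and that of Cypt12 at 165066 bp (3326 bp wide). Others stood at Irx1, an Iroquois homeodomain gene (2653 bp), and at Lhx9, again a pair (2199 and 1584 bp). The remaining members of these 12 lay within 10 kb of the TSS of Tfap2b, Hoxc12, Zfhx3, Blcap and Zfhx4 and inside the Setbp1 gene, with 1518 to 2024 bp. Top signals in the 12 ran from 8 to 26 in replicate 2, against a median of 61 over all regions in that library.

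Most wide regions reached a gene start. Of the 2705, 2422 overlapped the 500 bp on either side of a TSS of any transcript, 89.5% (88.3 to 90.6), against 14.5% of all replicate 1 and 24.8% of all replicate 2 hotspots. The share was 93.3% (90.7 to 95.2) where both libraries were wide and 91.4% (90.1 to 92.6) where only replicate 1 was. It was 65.1% (58.7 to 70.9) where only replicate 2 was. By midpoint, 2187 regions were promoter, 89 exonic, 242 intronic and 187 intergenic. A wider interval meets a TSS more readily, whatever it is, and the midpoint share of 80.9% does not depend on width in that way.

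Along the range of widths the share near a TSS rose in replicate 1 from 9.24% below 500 bp to 76.1% at 1000 bp to under 1500 bp and 94.5% at 3000 bp or more. In replicate 2 it rose from 18.2% to 84.4% at 1000 bp to under 1500 bp and was 72.7% (51.8 to 86.8) among the 22 widest. The median ratio of observed to expected CpG went from 0.230 to 0.746 at 2000 bp to under 3000 bp in replicate 1 and was 0.711 at 3000 bp or more, and in replicate 2 from 0.264 to 0.709 at 1500 bp to under 2000 bp and down to 0.456 at 3000 bp or more.

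**Figure D3:**
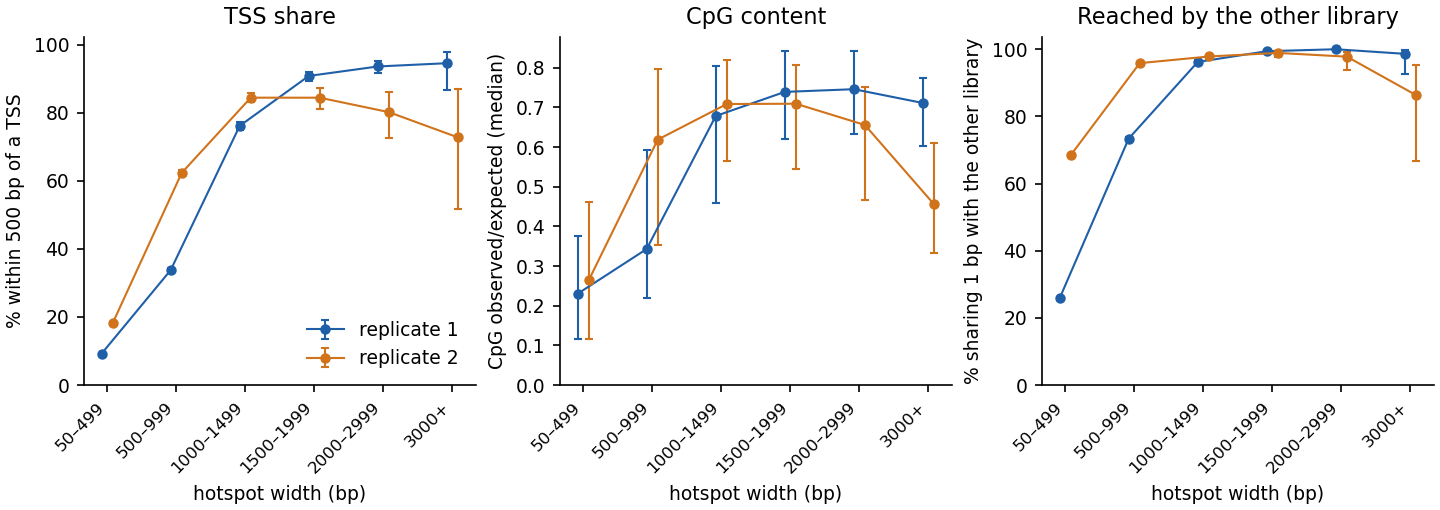
Hotspots by width class (bp) in replicate 1 (blue) and replicate 2 (orange): percent within 500 bp of a TSS and percent sharing 1 bp with the other library, both with 95% Wilson intervals, and median observed/expected CpG with quartiles. In replicate 1 the TSS share rises to 94.5% in the widest class; in replicate 2 it is 72.7% there.

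The regions as a set were GC-rich, with a median GC content of 59.7% and a median observed/expected CpG of 0.728, against 0.250 and 0.296 for all hotspots of replicates 1 and 2. A ratio of at least 0.6 was found in 2020 regions, 74.7%. The median was 0.718 where both libraries were wide, 0.745 where only replicate 1 was and 0.513 where only replicate 2 was. Repeats took up a median of 8.13% of a region and at most 43.4%.

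The 1985 regions holding TSSs of exactly 1 coding gene gave a profile around the gene start. Hotspots covered the most upstream coding TSS inside the region in 99.6% of them in replicate 1 and 93.0% in replicate 2. The regions are made of wide hotspots and were chosen for holding a TSS, so cover by at least 1 library was fixed by that choice. The choice also favours replicate 1, as 1524 of the 1985 were wide in replicate 1 only and 102 in replicate 2 only. Peak midpoints were densest in the 50 bp bin centred 50 bp upstream, at 24.0 per 100 regions in replicate 1 and 22.5 in replicate 2. They were sparse at 150 bp downstream (4.18 and 4.48) and dense again at 700 bp downstream (11.1 and 10.3). Both libraries showed the same low and the same broad downstream rise. The strongest peak was taken from replicate 1 where that was wide and otherwise from replicate 2. It lay a median of 44 bp upstream of the most upstream TSS inside the region. In 1346 regions, 67.8% (65.7 to 69.8), it was within 250 bp of that TSS.

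**Figure D4:**
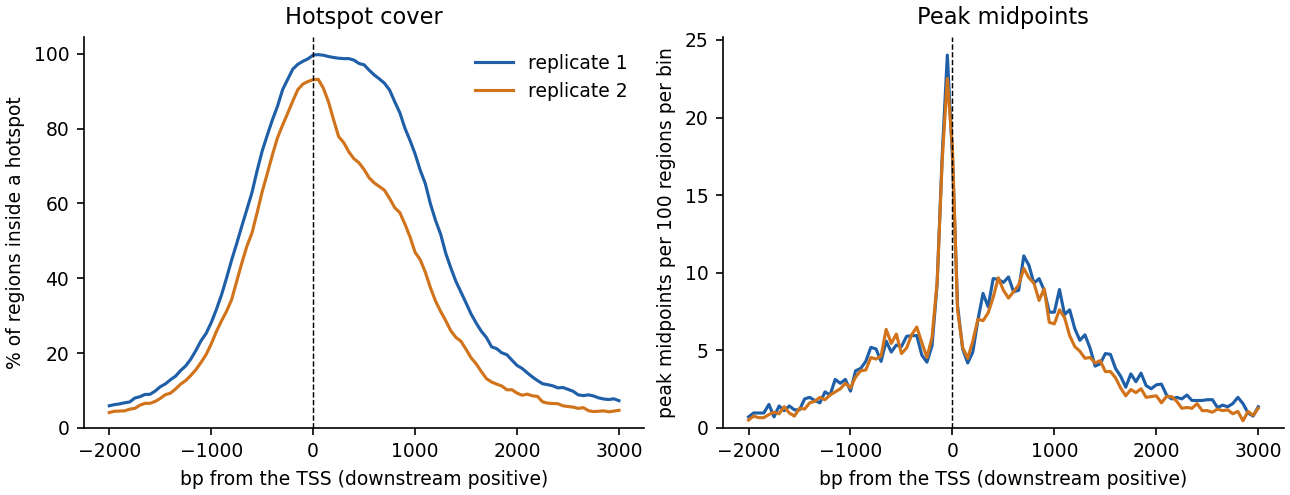
The 1985 regions with TSSs of 1 coding gene, by distance in bp from the most upstream coding TSS inside the region: percent of regions inside a hotspot (left) and peak midpoints per 100 regions and 50 bp bin (right), for replicate 1 (blue) and replicate 2 (orange). High hotspot cover at the TSS follows from the choice of the regions. Both libraries peak just upstream of the TSS, at 24.0 and 22.5, dip near 150 bp downstream and rise again to 11.1 and 10.3 near 700 bp.

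From the most upstream coding TSS inside them, these regions extended a median of 700 bp upstream and 1159 bp downstream, and 74.8% (72.8 to 76.6) were longer downstream. TSSs of the same gene that lie outside the region were not used. From the most downstream coding TSS inside the region the medians were 1025 and 834 bp and 41.0% were longer downstream, so the direction depends on which TSS is taken. Shared gene starts were part of the set: 314 regions held TSSs of 2 coding genes and 302 held coding TSSs on both strands, while 396 held none.

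Peaks inside the regions were counted by their midpoints, and every wide hotspot held at least 1 peak of its own library. A wide hotspot held a median of 3 peaks in each library, at most 13 in replicate 1 and 17 in replicate 2, with means of 3.51 and 3.34 against 1.09 and 1.03 over all hotspots. Per kb the wide hotspots held fewer, with 1.82 in replicate 1 and 1.79 in replicate 2, against 3.42 and 3.63 over all hotspots. In all, 8703 replicate 1 peaks, 3.90%, and 2367 replicate 2 peaks, 1.98%, lay in wide hotspots. The strongest peak of a region had a median signal of 124 in replicate 1 and 61 in replicate 2, at median percentiles of 97.5 and 95.4 of its own list. These values come from the same reads as the width and support nothing about it.

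Column 9 of the hotspot files, the −log10 of the authors' q value, has 100 as its strongest class. All 2479 wide replicate 1 hotspots were in that class, against 36.5% of all replicate 1 hotspots. In replicate 2, 705 of 709, 99.4%, were in it, against 26.6% of all. The 4 exceptions, singled out after their values were seen, were at Unc5c and Edil3 (both 6), Pcdhac2 (5.40) and Camk4 (4.70). All 4 had a width of 1519 to 1675 bp in replicate 2.

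The strongest peak of each region was searched on both strands for 14 consensus motifs, in the 2476 regions wide in replicate 1 with replicate 1 peaks and in the 707 wide in replicate 2 with replicate 2 peaks. These were the GC box GGGCGG, the ETS motif CCGGAAG, the NRF1 motif GCGCNTGCG, the CCAAT box CCAAT, the cAMP response element (CRE) TGACGTCA with its variant TGACGCA, the YY1 motif AANATGGC, the SOX motif AACAATG, the neuronal E-box CAGCTG, the homeobox core TAATTA, the AP-1 motif TGACTCA, the POU octamer ATGCAAAT, and the NFI and RFX motifs. Matches of the NFI motif and of CCAAT can overlap. The GC box stood in 57.9% (55.9 to 59.8) of the strongest replicate 1 peaks against 9.31% of all replicate 1 peaks and 34.3% of those within 500 bp of a TSS. In replicate 2 the shares were 51.8% (48.1 to 55.4), 12.5% and 35.8%. Both backgrounds, here and for the other motifs, hold peaks of every strength, while each region gives only its strongest peak. Peak strength and hotspot width are therefore not separated in these contrasts.

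The ETS motif stood in 7.43% of the replicate 1 peaks against 1.83% of all and 6.65% of TSS peaks, and in 5.94% against 2.53% and 7.33% in replicate 2. The NRF1 motif stood in 10.4% of these peaks against 1.16% of all and 5.28% of TSS peaks in replicate 1, and in 10.9% against 1.92% and 6.29% in replicate 2. The CRE, bound by CREB and ATF factors, stood in 3.23% against 0.485% and 1.56%, and in 3.39% against 0.597% and 1.74%. The homeobox core and the AP-1 motif were rarer than in all peaks. TAATTA stood in 0.848% of the replicate 1 peaks against 5.72% of all and 1.52% of TSS peaks, and AP-1 in 0.969% against 3.38% and 2.02%. The NFI motif was found in 0 of 2476 replicate 1 and 0 of 707 replicate 2 peaks, against 0.173% and 0.0804% of all peaks and 0.0566% and 0.0311% of TSS peaks. A count of 0 allows a share of up to 0.121% in replicate 1 and 0.424% in replicate 2, so neither share can be told from that of TSS peaks, and the replicate 2 share cannot be told from that of all its peaks.

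Away from gene starts, 283 regions did not reach the 500 bp about any TSS, of which 171 were wide in replicate 1 only, 80 in replicate 2 only and 32 in both. Of these 283, 13 (4.59%) overlapped one or more of the 866 merged RefSeq enhancers on the autosomes, a count that their width favours. Among all hotspots away from any TSS, 0.473% in replicate 1 and 0.755% in replicate 2 did so. Irf2bp2 (chr8:126665461-126668958, 71475 bp from its TSS) measured 3498 bp in replicate 1 and 762 bp in replicate 2. No coding gene lay within 10 kb of 184 regions, 6.80%, and this share was 17.9% where only replicate 2 was wide. The widest of them, beside the 2 miR-9 loci, was at Gm4258 (chr1:137897597-137901636), with 1224 bp in replicate 1 and 4040 bp in replicate 2.

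MicroRNA genes were among the noncoding genes covered: 51 regions overlapped 53 of 2054 autosomal miRNA genes. The number of miRNA genes under hotspots of any width is not given. The count therefore has no background and is not read as a trait of wide regions. In 8 of the 51 no coding TSS lay within 500 bp. Those held Mir9-2, Mir9-3, Mir125b-2, Mir132 with Mir212, Mir1897, Mir124a-3, Mir7655 and Mir6991. Mature strands of Mir9-2 and Mir9-3, Mir125b-2, Mir132 and Mir212 are printed from RefSeq (GRCm38.p6) with their seed, bases 2 to 8, in capitals. The loci Mir9-2 and Mir9-3 give the same strand, and miR-132-3p and miR-212-3p, which derive from 1 locus on chromosome 11, share the seed AACAGUC.
miR-9-5p: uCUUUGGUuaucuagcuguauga
miR-125b-5p: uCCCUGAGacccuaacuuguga
miR-132-3p: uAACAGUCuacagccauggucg
miR-212-3p: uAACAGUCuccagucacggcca

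The region over Mir132 and Mir212 (chr11:75172074-75174159) measured 889 bp in replicate 1 and 2086 bp in replicate 2, and that over Mir125b-2 (chr16:77646141-77648583) 434 and 2443 bp. The region over Mir124a-3 (chr2:180893423-180895203) measured 1781 bp in replicate 1 and 504 bp in replicate 2. Of the 8, 1 was wide in both libraries, namely Mir9-2, whereas 4 were wide in replicate 1 only and 3 in replicate 2 only.

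Of 20807 autosomal protein-coding genes, 3454, 16.6%, had a wide region within 10 kb and 2628, 12.6%, had one within 500 bp of a TSS. Genes with a region at a TSS had a median length of 39.5 kb and 5 annotated TSSs, against 22.3 kb and 4 for genes with a narrower hotspot there and 7.42 kb and 2 for those with none. Genes of general function were frequent among them, and widths at their TSSs are given for replicate 1 and replicate 2 in turn. Of 23 chromatin regulators, 19 had a region within 10 kb and 16 at a TSS, among them Kmt2c, a histone H3 lysine 4 methyltransferase (2996 and 2569 bp), Kmt2a, of the same family (2832 and 871 bp), and Sin3a, a corepressor scaffold (2767 and 884 bp). Of 20 genes of RNA polymerase II and splicing, 10 had one within 10 kb and 9 at a TSS, with U2af2, a 3′ splice site factor, widest (2977 and 1990 bp). Of 16 housekeeping genes, 5 had one within 10 kb and Gapdh was the widest (3233 and 2140 bp). Wide hotspots stood at a TSS of 16 chromatin regulators in replicate 1 and 2 in replicate 2. The counts were 9 and 2 for the polymerase and splicing genes, 4 and 3 for the housekeeping genes, and 2489 and 626 over all coding genes.

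Neuronal genes were also frequent: 11 of 17 pan-neuronal genes had a wide region, all at a TSS. The widest were at Ncam1, a neural cell adhesion molecule (2702 bp in replicate 1 and 2909 bp in replicate 2), Mapt, which encodes tau (2420 and 1115 bp), and Nefm, a neurofilament subunit (2327 and 521 bp). Tubb3, the neuronal beta-tubulin, was wide in replicate 2 only, with 911 and 1760 bp, as were Snap25 and Elavl2. The immediate early genes, which respond to neuronal activity, had a region within 10 kb in 5 of 22, with Jun widest (2784 and 1662 bp). Progenitor genes had one in 6 of 17, with Id2 widest (2561 and 470 bp).

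Regions near genes of regional identity are given by the library that made them wide. Over all 2705 regions, 73.9% were wide in replicate 1 only and 8.47% in replicate 2 only. Of 18 midbrain and isthmus patterning genes, 4 had a region within 10 kb. At Otx2, Fgf17, a growth factor of the isthmus, and Meis2 the wide call came from replicate 2 only, and at Meis1 from replicate 1 only. Meis2 was the only one with a region at a TSS, where its hotspots measured 544 bp in replicate 1 and 4213 bp in replicate 2. Of 14 midbrain glutamatergic genes, 5 had a region within 10 kb. At Lhx9, Tfap2b and Nfix, which encode transcription factors, the wide call came from replicate 2 only, and at Gria2 and Grin2b, glutamate receptor subunits, both libraries were wide (1779 and 1914 bp, 1843 and 1891 bp). Of 13 Zic and cerebellar genes, 5 had one, and all 5 calls came from replicate 1 only, the commonest state over all regions. Some of the 5 genes share a region. Zic2 measured 3270 and 1421 bp, Zic1 and Zic4, which share a region, 2721 bp in replicate 1, and Cbln1, a synapse organiser of cerebellar granule cells, 1751 and 911 bp. Sox2, of neural progenitors, was wide in replicate 2 only (404 and 1795 bp).

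Over the whole lists, hotspots at a TSS were counted in replicate 1 and replicate 2 at 13 and 9 of 13 Zic and cerebellar genes and at 25 and 5 of 39 Hox genes. They were counted at 13 and 12 of 14 midbrain glutamatergic genes and at 13 and 9 of 18 midbrain and isthmus genes. Over all coding genes the counts were 14662 and 13343. The part of these differences in which regions were wide was not tested.

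The rest of the lists are given by the same count of genes with a region within 10 kb. Of 18 dopaminergic genes, 1 had a region within 10 kb, Otx2, and of 16 GABAergic genes, 1, Zfpm2 (2082 and 967 bp). There were 2 of 39 Hox genes, Hoxc11 and Hoxc12, which shared 1 replicate 2 region, 2 of 12 astrocyte genes, Nfib and Glul, 6 of 26 neuronal factors, 6 of 26 Wnt, Shh and Notch genes, 4 of 14 clustered histone genes and 2 of 4 nuclear factor I genes. None of 17 forebrain, 13 oligodendrocyte, 14 microglial, 13 endothelial, 7 erythroid, 14 liver or 15 heart and muscle genes had one. Against the 16.6% of all genes, the shares of the dopaminergic, GABAergic and Hox lists were lower and those of the chromatin, splicing and pan-neuronal lists higher. Also higher were the nuclear factor I (50%), clustered histone (28.6%), neuronal factor (23.1%) and Wnt, Shh and Notch (23.1%) lists. The astrocyte list, at 16.7%, was near the share of all genes. No test is attached.

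Wide regions were spread over all 19 autosomes at 0.825 (chromosome 14) to 1.70 (chromosome 11) per Mb. The median gap between neighbours was 362.7 kb. In 229 runs with gaps under 50 kb stood 510 regions, 18.9%. Beside those at the miR-9 loci, a run of 5 regions stood from Thra to Msl1, of which 3 were wide in replicate 1 only and 2 in replicate 2 only. At Meis2, 4 regions within 16.3 kb were all wide in replicate 2 only.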

How the data were processed

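DNase-seq lists of 2 midbrain libraries, on mm10, were used as deposited. Per the labels, each library is 1 biological replicate. The authors' files hold hotspots with the −log10 of a q value in column 9 and a display score, both deposited by the authors, and 150 bp peaks, for which the authors deposited an integer signal. The score was not used. The aligner, caller, their versions and read totals were not given in the sources used here. Depth and the precision it would give are therefore unknown.

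Widths were column 3 minus column 2. Hotspots of chromosomes 1 to 19 of at least 1500 bp were merged over both libraries by 1 bp of overlap. Hotspots split by a small gap counted as separate: 22133 neighbours in replicate 1 and 21511 in replicate 2 lay less than 150 bp apart, which lowers widths. Peaks were assigned by midpoint. TSSs of all transcripts and 20807 autosomal coding genes came from GENCODE M21, sequences and enhancers from RefSeq GRCm38.p6. Of 394 symbols in 24 gene lists, 383 matched an autosomal coding gene. Shares carry 95% Wilson intervals, and no test was run. Python 3.11.15, numpy 2.4.6, pandas 2.3.3, scipy 1.17.1 and matplotlib 3.10.9 were used, and merging and overlap were tested on simulated intervals.

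The members, lists and motifs were chosen with earlier results of these data known. Regions named were the 10 widest, the 5 widest of each library, the 10 with the greatest smaller width among those wide in both, the 5 widest in replicate 2 only, away from TSSs or without coding genes, the 5 with most peaks and those at the limit, with the 3 genes of widest region per list. A region is named by the coding gene whose TSS is inside or nearest. Regions named outside this rule are said to be chosen after their values were seen, or are members of a run, a list or a miRNA gene.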

Additional observations from a re-analysis of the deposited data

Results flagged for a closer look

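The rule took autosomes only, and 3 counts from the remaining sequences were flagged because wide hotspots also occurred in data that the comparisons did not use. On the X chromosome, 62 replicate 1 hotspots and 8 replicate 2 hotspots were at least 1500 bp wide. Merged over both libraries they gave 64 regions, of which 59 reached the 500 bp about a TSS. On the mitochondrial genome and unplaced sequences, 5 replicate 1 hotspots reached the limit, the widest of 3055 bp.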

How the results depend on the processing

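No paired analysis was possible because there is 1 group. Other choices of width moved the number of regions from 2705 to 8365 at 1000 bp, 862 at 2000 bp and 4692 when hotspots less than 150 bp apart were joined first. With that joining 1382 of the 4692 regions, 29.5%, were wide in both libraries, in place of 478 of 2705, 17.7%. Those wide in replicate 2 only were 627, in place of 229. These are counts over different sets of regions. How far the difference between the libraries depends on the splitting of intervals was not tested. The widest joined hotspot was still narrower in replicate 1 at Lhx9 (751 against 8559 bp), Meis2 (683 against 12584 bp) and Nnat (1127 against 9299 bp). Regions covered to at least 50% in each library were 86.1%. The share at a TSS was 79.1% at 1000 bp and 80.9% by midpoint. Counting the stronger 50% of the peaks gave 1.62 and 1.41 peaks per kb in replicates 1 and 2 in place of 1.81 and 1.75. The middle 500 bp of the regions had an observed/expected CpG of 0.828. The share of strongest peaks with a GC box was 6.22 times that of all peaks and 1.69 times that of TSS peaks, neither of them matched for peak strength. Within 50 kb lay 5904 coding genes. With the most downstream TSS inside the region, an alternative added after seeing the data, 41.0% of regions were longer downstream in place of 74.8%.

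Leaving out one library at a time gave 709 regions without replicate 1 and 2479 without replicate 2, and 961 to 3222 coding genes within 10 kb. Regions reached by both libraries were 98.3% to 99.6%, those at a TSS 83.2% to 91.7%, peaks per kb 1.77 to 1.83 in replicate 1 and 1.75 to 1.81 in replicate 2, and the CpG ratio 0.695 to 0.740. The GC box ratio without replicate 1 was 4.13. Read depth is unknown, so how far it limits the widths was not tested.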

Other observations

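The widest X-linked region, of 2876 bp, lay 37083 bp from the nearest coding TSS, that of the RNA helicase gene Ddx3x. Next were regions at the TSSs of Nexmif, a neurite extension factor, at 2872 bp and Usp9x, a deubiquitinase, at 2845 bp. The Y chromosome held 1 wide hotspot in replicate 1 and 0 in replicate 2.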
